A study of Rattus norvegicus with 6 samples.

Results

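Of 64260 nuclear barcodes from the rat nucleus accumbens, 111 passed a gate for GABAergic nuclei that carried Kit together with Pthlh or Pvalb. A unique molecular identifier (UMI) marks 1 captured RNA molecule, and the gate was set on raw UMIs. It asked for at least 500 detected genes, at most 5% mitochondrial UMIs, at least 2 UMIs of Gad1 and Gad2 together, and at most 1 UMI over the glial genes Mog, Aqp4, Pdgfra and Csf1r. It further asked for at least 1 UMI of Pthlh or Pvalb, at least 1 of Kit, at most 1 of Sst, none of Drd1 or Drd2, and at most 1 of the cholinergic genes, of which Slc5a7 was present in the tables (Chat and Slc18a3 were not analysed here). The 111 members came from 61609 nuclei that met the gene and mitochondrial limits and from 28812 that also met the GABAergic and glial limits. The members were thus chosen by measured UMIs of these genes, whose levels are given as a description.

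The nuclei came from 12 Sprague-Dawley rats, 6 male and 6 female, aged 90 to 120 days, whose tissue was combined into 6 libraries, each holding both sexes. All rats had self-administered heroin, on an FR1 schedule for 7 days and an FR3 schedule for 4 days, with a progressive ratio test on day 12 and FR3 sessions on days 13 and 14. After the last session they received saline (libraries 1, 2 and 3) or the opioid receptor antagonist naloxone (libraries 4, 5 and 6), and brains were taken 1 hour later. Every group had therefore taken heroin, and a library is a pool of animals, so p-values measure the spread between these pools, which may be partly technical.

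Striatal GABAergic interneurons are a minority beside the spiny projection neurons, which express Drd1 or Drd2. Fast-spiking interneurons, known for Pvalb (the calcium buffer parvalbumin), inhibit spiny neurons around the cell body and fire rapidly through Kv3 potassium channels. Pthlh encodes parathyroid hormone-like hormone, a secreted peptide, and has been used to mark a striatal interneuron population that contains the Pvalb cells. Kit encodes the receptor tyrosine kinase for stem cell factor, the product of Kitlg.

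Members held 1239117 UMIs in all, 144801 to 358478 per library, with a median of 7916.5 to 17923.5 UMIs per nucleus, the deepest in naloxone library 6. The comparison gates held 46 nuclei with at least 2 Sst and 1 Npy UMIs (5 to 17 per library), 424 cholinergic nuclei with at least 2 Slc5a7 UMIs, and 5947 spiny nuclei with at least 2 UMIs of Drd1 or Drd2. A doublet caller marked 2 members, 1 in naloxone library 5 and 1 in naloxone library 6. Of all nuclei that met the gene and mitochondrial limits it marked 3.65% (saline library 1) to 6.84% (saline library 2). Its target rate, 0.4% per 1000 nuclei, was set in advance. Across libraries 463 barcodes recurred, and 0 members had a barcode found in another library. The labels state 44592 nuclei, against the 64260 barcodes in the tables.

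The label of the class names Pthlh, Pvalb, Kit and Eya4. Kit had 283, 314 and 363 CPM (the gene's UMIs divided by all UMIs of the members in that library and scaled to 1000000) in saline libraries 1, 2 and 3, and 257, 296 and 243 CPM in naloxone libraries 4, 5 and 6. Pthlh had 124, 142 and 71.5 CPM after saline and 79.2, 115 and 53.0 CPM after naloxone. Pvalb was sparser, at 20.7, 37.0 and 46.0 CPM after saline and 39.6, 26.5 and 16.7 CPM after naloxone. No member carried more than 3 UMIs of Pthlh or 3 of Pvalb, while Kit reached 19. Eya4, a transcriptional coactivator, went against the label. It had 0 UMIs in the members of every library, which allows a level of up to 2.42 CPM, against 10.4 ± 1.78 CPM (SD, n = 6 libraries) in the spiny gate and 539 ± 59.6 CPM in oligodendrocyte nuclei. The members' level was thus at least 4.21-fold lower than the pooled spiny level. Its relative Eya1, singled out after its values were seen, had 64.1 ± 44.1 CPM in the members, 1.94 ± 1.64 CPM in the spiny gate and 0 UMIs in the Sst-Npy gate. The nuclei are therefore described by the gate and not as an Eya4 class.

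Of 14 panel genes of medial ganglionic eminence interneurons, Nxph1, Erbb4, Maf and Sox6 had over 1000 CPM in the members and the other 10, Eya4 included, under 100 CPM. Nxph1, a secreted neurexin ligand, had 7871 to 9422 CPM across the 6 libraries, and Erbb4, a neuregulin receptor gene that oligodendrocyte nuclei also expressed here (3665 CPM), had 12029 to 14703 CPM. Lhx6, the transcription factor of that lineage, stood at 29.7 ± 9.02 CPM and was detected in 29 of 111 members, or 26.2% as the mean of library shares. Its share was 37.8% in the Sst-Npy gate and 20.6% in the cholinergic gate, so its detection is not particular to the members. The share was 1.31% in the spiny gate, at a median of 7507.5 to 15043 UMIs per nucleus in a library. In the shallower oligodendrocyte nuclei it was 0.167%. Nkx2-1, a factor of the same lineage, had 5.73 CPM, and Cox6a2 and Opn3 had 1.15 and 0.851 CPM. Spiny neuron genes were low: Rgs9 had 13.8 to 44.6 CPM across the members' libraries against 912 ± 151 CPM in the spiny gate. The 13 spiny panel genes that could be measured summed to 1645 ± 291 CPM in the members, with Pde10a alone at 1031 CPM, and to 9536 ± 678 CPM in the spiny gate. Their sum was 1849 ± 408 CPM in the cholinergic gate and 3204 ± 780 CPM in the Sst-Npy gate, so a low sum is not particular to the members. The somatostatin interneuron gene Nos1 had 1 UMI among all members, against 474 ± 148 CPM in the Sst-Npy gate.

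Upstream sequence is shown for the gate genes Kit and Pvalb, for Nxph1, the gene on which the members divide below, and for Cdh20, the only promoter with a match among the genes named as higher. The table used holds no entry for Pthlh. Sequences are the 250 bases before the annotated start from RefSeq (GRCr8), written 5′ to 3′ on the gene's strand. Capitals mark the letters TGCTGA or their reverse complement TCAGCA, the half-site known for Maf, whose gene was among those higher in the members.
Kit, chr14:32978813-32979062, minus strand: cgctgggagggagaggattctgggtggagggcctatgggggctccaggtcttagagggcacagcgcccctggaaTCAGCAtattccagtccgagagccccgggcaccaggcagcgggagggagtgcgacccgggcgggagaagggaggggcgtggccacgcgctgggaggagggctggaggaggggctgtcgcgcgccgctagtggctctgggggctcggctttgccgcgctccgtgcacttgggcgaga
Pvalb, chr7:111666290-111666539, minus strand: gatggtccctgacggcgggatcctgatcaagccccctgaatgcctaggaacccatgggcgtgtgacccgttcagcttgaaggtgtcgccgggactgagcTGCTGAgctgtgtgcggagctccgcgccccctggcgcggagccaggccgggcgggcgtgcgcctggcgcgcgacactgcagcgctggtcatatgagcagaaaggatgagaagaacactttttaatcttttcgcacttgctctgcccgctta
Cdh20, chr13:21515017-21515266, plus strand: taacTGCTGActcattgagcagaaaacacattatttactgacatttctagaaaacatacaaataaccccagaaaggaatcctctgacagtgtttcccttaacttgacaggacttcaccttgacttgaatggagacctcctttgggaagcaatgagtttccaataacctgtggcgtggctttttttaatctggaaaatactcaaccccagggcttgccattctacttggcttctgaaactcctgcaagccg
Nxph1, chr4:37964075-37964324, plus strand: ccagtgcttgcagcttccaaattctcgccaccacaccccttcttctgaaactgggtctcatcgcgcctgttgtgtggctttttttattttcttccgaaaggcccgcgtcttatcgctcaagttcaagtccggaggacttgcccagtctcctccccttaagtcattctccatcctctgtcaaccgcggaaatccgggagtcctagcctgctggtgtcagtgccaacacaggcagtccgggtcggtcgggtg
Kit, Pvalb and Cdh20 hold 1 match each and Nxph1 holds 0. Of all 33469 promoters in the table, searched over the same 250 bases and both strands, 15.1% hold a match. Of the 15 genes named as higher, 11 have a promoter in the table and 1 of these holds it. A match is a description of the letters and not of binding.

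The gate admitted nuclei of unlike content. Pthlh without Pvalb was found in 83 members, both genes in 4, and Pvalb without Pthlh in 24. Nxph1 divided them: with a threshold of 10 UMIs, chosen after the values were seen, 93 members were Nxph1-rich (14 to 459 UMIs) and 18 were Nxph1-poor (0 to 8 UMIs). Only 2 members lay within 5 UMIs of the threshold. Rich nuclei made up 82 of the 83 with Pthlh only, all 4 with both and 7 of the 24 with Pvalb only. The exception with Pthlh had 3 Nxph1 UMIs among 1622 in all, as the plot of Nxph1 against depth shows. Depth did not follow the same order, since poor nuclei had a median of 13815.5 UMIs and rich nuclei 8963.

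**Figure D1:**
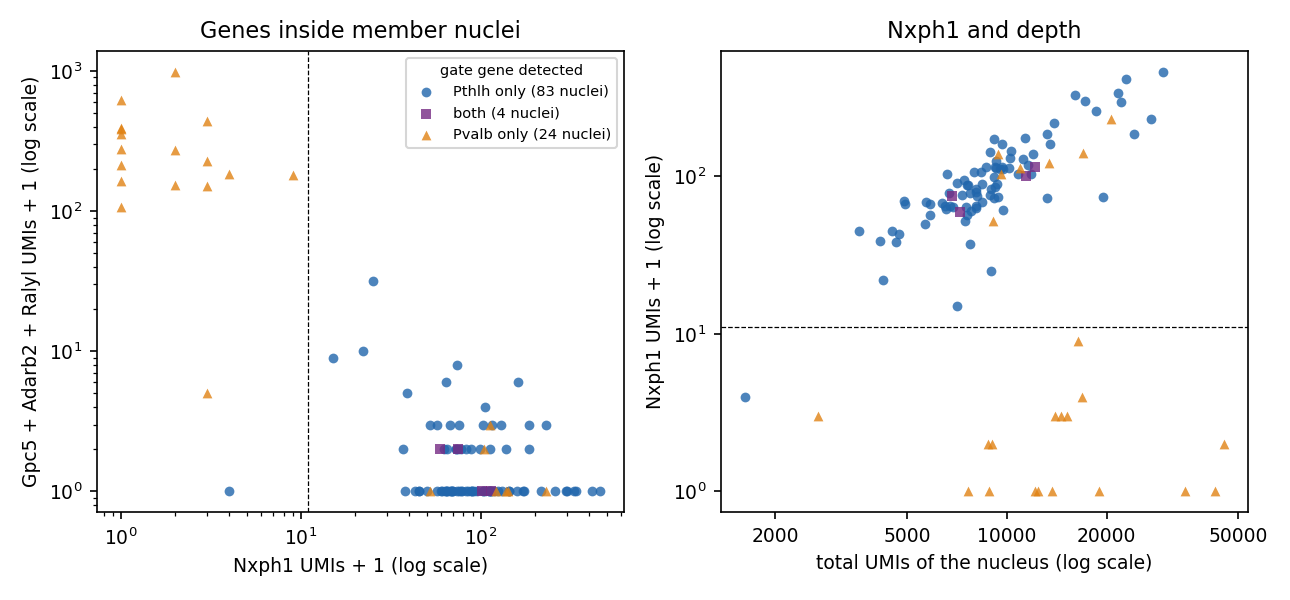
Each point is a member nucleus, coloured by the gate gene detected; the left panel plots the UMIs of Gpc5, Adarb2 and Ralyl together (plus 1) against Nxph1 UMIs (plus 1), and the right panel plots Nxph1 UMIs (plus 1) against total UMIs, all on log axes, with a dashed line at 10 Nxph1 UMIs in each. Of the 17 Nxph1-poor nuclei with Pvalb only, 16 sit at the upper left, and 86 of the 87 nuclei with Pthlh lie on the Nxph1-rich side. Gpc5, Adarb2 and Ralyl were chosen from the values of these same nuclei.

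Pooled over nuclei, the rich members had 11040 Nxph1 CPM, 17094 Erbb4 CPM, 2795 Maf CPM and 1371 Egfr CPM. The poor members had 84.8, 298 and 20.3 CPM of the first 3 genes and 0 Egfr UMIs, against 1294 Egfr UMIs in the rich members. In the opposite direction, Gpc5, a glypican, had 6414 CPM in the poor members and 11.7 CPM in the rich. Adarb2, a gene of caudal ganglionic eminence interneurons that oligodendrocytes also expressed here (3039 CPM), had 4583 and 49.8 CPM. Ralyl, an RNA-binding protein gene, had 6285 and 53.0 CPM, and the adhesion phosphatase gene Ptprd had 9523 and 125 CPM. The other listed genes of caudal ganglionic eminence interneurons did not follow Adarb2. Prox1 had 56 UMIs in the rich members and 0 in the poor. Calb2, Reln, Vip and Htr3a had 7, 2, 1 and 1 UMIs in the rich and 0 in the poor. Lamp5 had 2 in each and Cck 0 in each. Of the 18 poor nuclei, 16 had at least 10 UMIs of Gpc5, Adarb2 or Ralyl, and 1 of the 93 rich nuclei did. Gpc5 and Ralyl were named by the Pvalb comparison of these same nuclei below, and Adarb2 after its values were seen. Their separation was thus partly set by how they were chosen. The poor nuclei were not uniform, since 12 reached 10 UMIs of Gpc5, 12 of Adarb2 and 14 of Ralyl. The Kv3 channel genes were present in both: Kcnc1 had 491 CPM in rich and 295 CPM in poor members, and Kcnc2 1850 and 1136 CPM. These are descriptions of nuclei pooled over libraries and carry no test.

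The poor nuclei numbered 2, 3 and 3 in saline libraries 1, 2 and 3 and 3, 3 and 4 in naloxone libraries 4, 5 and 6. Their share of the members' UMIs ran from 14.8% in saline library 2 to 37.5% in naloxone library 6. A single Kit UMI carried 11 of the 18 poor nuclei (61.1%) and 18 of the 93 rich ones (19.4%) into the gate. The results below are for all 111 members, and a comparison with only the 87 members that carry Pthlh is given where it ended the call of a gene named below.

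**Figure D2:**
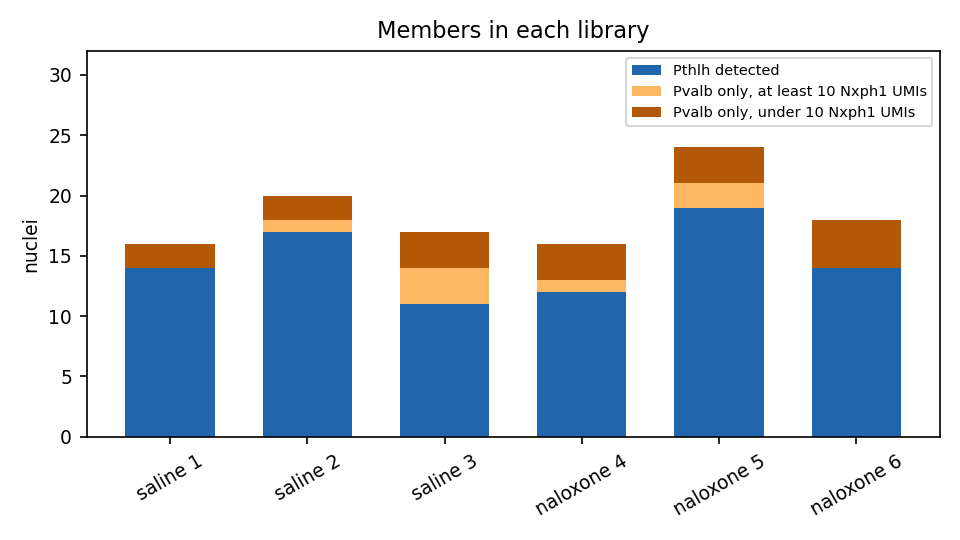
Bars give the number of member nuclei in each of the 6 libraries, divided into nuclei with Pthlh, nuclei with Pvalb only and at least 10 Nxph1 UMIs, and nuclei with Pvalb only and fewer. Every library holds nuclei with Pthlh and Nxph1-poor nuclei with Pvalb only, and totals run from 16 to 24.

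Nuclei on both sides of the gate's limits overlapped in content. Inside, 29 members had 1 Kit UMI, 79 had 1 UMI of Pthlh or Pvalb, and 23 had 1 Kit UMI and 1 UMI of Pthlh or Pvalb. Of the members with 1 Kit UMI, 18 of 29 were Nxph1-rich, and of those with at least 2, 75 of 82. Just outside, 732 nuclei had 1 Kit UMI and 376 had at least 2 but neither Pthlh nor Pvalb, and 241 and 217 of them had at least 10 Nxph1 UMIs. A further 137 nuclei had Pthlh or Pvalb without Kit, and 29 of these were Nxph1-rich. Of all 551 nuclei with Kit and at least 10 Nxph1 UMIs on either side of the Pthlh and Pvalb limit, 16.9% were members. The same mark was found in 39 of 46 Sst-Npy nuclei, 80 of 424 cholinergic nuclei and 142 of 5947 spiny nuclei, so it is not particular to the members.

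Detection depended on depth. Thinned to 1000 UMIs per nucleus, which left out 0 members, Nxph1 was found in 83.7 ± 4.41% of members (mean of library shares, SD, n = 6), Erbb4 in 87.4% and Maf in 73.6%. Unthinned, the shares were 92.7%, 92.8% and 85.6%. In oligodendrocyte nuclei, which should lack Nxph1 and Maf, the thinned shares were 2.89% and 0.584%, at a lower median depth of 1448.5 to 2379 UMIs per library and with 9.8% of nuclei left out. Erbb4 was found in 93.0% of those nuclei after thinning, above its share of the members, so its detection does not set the members apart from oligodendrocytes. Thinned, Pthlh was found in 9.04% of members, Pvalb in 4.82% and Kit in 24.9%, which the gate had chosen, and in 0.0358%, 0.142% and 0.31% of oligodendrocyte nuclei. Unthinned, the oligodendrocyte shares were 0.122%, 0.197% and 0.646%. Lhx6 was found in 0 members after thinning. Thinned shares rest on a single random draw per class. A separate draw of the 83 members without Pvalb found Lhx6 in 0.877% as the mean of library shares.

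Members made up 0.174 ± 0.0333% of quality-filtered nuclei after saline and 0.196 ± 0.0403% after naloxone (mean ± SD, n = 3 libraries each). Counts were 16, 20 and 17 after saline and 16, 24 and 18 after naloxone. The groups overlapped, and the difference of 0.0213 percentage points gave p = 0.5 (2-sided exact permutation test, whose smallest possible value is 0.1). It was 0.00298 points without saline library 2, 0.0354 without saline library 1, 0.0446 without naloxone library 4, 0.00978 without naloxone library 5 and 0.00961 without naloxone library 6. With at least 2 UMIs of Kit and of Pthlh and Pvalb together it changed sign (-0.00266 points). As a share of GABAergic-gated nuclei they made up 0.366 ± 0.0573% and 0.417 ± 0.0568% (exact permutation p = 0.3; Benjamini-Hochberg adjusted over these 2 comparisons, both p = 0.5). That difference of 0.0506 points was 0.0177 without saline library 2, 0.0834 without naloxone library 4, and -0.00681 with the limit of 2 UMIs. Whether fewer or more nuclei of the kind were present, or whether more of them passed the UMI limits, cannot be told apart.

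Members with Pvalb were compared with those without it in the same libraries, with the library as a block. The members without Pvalb all carry Pthlh, as the gate required. Of 1880 genes tested 207 (11% of those tested; 6.6% higher and 4.41% lower) passed an adjusted p of 0.05 in edgeR's quasi-likelihood test, 124 higher and 83 lower. Gpc5 had 4306 ± 2464 CPM in members with Pvalb and 8.62 ± 15.5 CPM in those without (log2 difference 8.42 ± 0.91 SE, adjusted p = 0.00015, higher in 6 of 6 libraries). Brinp3, Ralyl and Galnt18, a glycosyltransferase gene, were higher by 7.25, 5.93 and 5.67 on the log2 scale. Sema3c, a secreted guidance semaphorin, had 136 to 454 CPM in members with Pvalb and 0 UMIs in those without, and was at least 79.0-fold higher against the floor of 3 UMIs pooled over libraries. Nxph1-poor nuclei held 121 of the Sema3c UMIs and Nxph1-rich nuclei 1. The GABA-A receptor subunit gene Gabrb2 was also higher with Pvalb, at 1366 against 455 CPM. Pooled over nuclei, Gabrb2 had 1759 CPM in Nxph1-poor and 455 CPM in Nxph1-rich members.

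The lower genes were St18, Zeb2, Gna14, Nfib and Trhde, with log2 differences of -2.60, -2.60, -2.41, -2.28 and -2.26. Zeb2, a transcription factor of migrating interneurons, had 205 ± 210 CPM with Pvalb and 1017 ± 177 CPM without. Pooled over nuclei, Zeb2 had 1009 CPM in Nxph1-rich and 10.2 CPM in Nxph1-poor members, and 849 CPM in the 4 members with both Pthlh and Pvalb. St18 had 302 CPM in the rich and 0 UMIs in the poor members. Kcnip1, a modulator of A-type potassium channels, had 1068 CPM with Pvalb and 2725 CPM without, and was lower in 6 of 6 libraries. Its pooled level was 2723 CPM in Nxph1-rich and 298 CPM in Nxph1-poor members. Of the 4 interneuron panel genes tested, 0 passed, and all 4 were lower with Pvalb at an unadjusted p under 0.05, a level that 26.2% of all genes tested reached in either direction. Nxph1 was lower by 2.35 ± 0.92 SE (adjusted p = 0.13, edgeR) on the log2 scale. Syt2, a synaptotagmin of fast synapses, had 77.0 CPM with Pvalb and 0 UMIs without, and was not tested at that depth. All 34 Syt2 UMIs of the members were in Nxph1-poor nuclei, and the Nxph1-rich members with Pvalb had 0. Of the 18 Nxph1-poor nuclei described above, 17 are among the members with Pvalb, with 2 to 4 in every library. Whether the differences go with Pvalb or with the Nxph1-poor nuclei was not tested. Without naloxone library 6 the count was 121 and without naloxone library 5 it was 137. With at least 2 UMIs of Kit and 2 of Pthlh and Pvalb together, 4 libraries could be used and 0 of 540 genes were called.

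Nxph1 and Erbb4 were higher in the members than in all 3 other neuron gates, Nxph1 by 2.03 ± 0.19, 4.39 ± 0.18 and 6.95 ± 0.13 on the log2 scale against the Sst-Npy, cholinergic and spiny gates. Against those gates, each with the library as a block, 575 of 2768 genes (20.8%) differed from the Sst-Npy gate, 1768 of 6634 (26.7%) from the cholinergic gate and 3574 of 11499 (31.1%) from the spiny gate. Of the 2766 genes tested in all 3, the members were higher than all 3 gates for 199 (7.19%) and lower for 116 (4.19%). The genes that define the gates were left untested, and the cholinergic and spiny gates exclude Kit by construction. The Sst-Npy gate rests on 46 nuclei, and a broader gate of 194 nuclei called 1096 genes.

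Genes named as higher are those with the largest smallest difference over the 3 gates. Egfr, the epidermal growth factor receptor gene, came first, with 960, 1004 and 1293 CPM after saline and 1029, 1083 and 943 CPM after naloxone in the members. In the spiny gate it had 4.21 to 7.88 CPM and in the cholinergic gate 0 to 29.6 CPM, and the Sst-Npy gate held 4 UMIs. The ranges did not overlap, and the log2 differences were 6.95, 6.77 and 7.31 (SE 0.42, 0.33 and 0.14) against the Sst-Npy, cholinergic and spiny gates.

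Col19a1, a collagen, had 930 ± 239 CPM in the members and at most 20.3 CPM as the mean of any other gate. Ccbe1, a matrix protein of lymphatic growth, had 546 ± 141 CPM against at most 13.7 CPM. Pdgfd, a platelet-derived growth factor ligand, had 109 ± 28.7 CPM, 0 UMIs in the Sst-Npy gate (at least 16.4-fold lower) and 3.20 and 1.23 CPM in the cholinergic and spiny gates. Hapln1, a link protein of perineuronal nets, had 113 ± 28.2 CPM against at most 5.32 CPM. Slc7a11, the cystine-glutamate exchanger, varied most between libraries, from 96.7 to 435 CPM in the members, and stayed above its highest value elsewhere.

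Maf, a transcription factor gene, had 2873, 2767 and 2059 CPM after saline and 1887, 2126 and 1702 CPM after naloxone, against 306 ± 129 CPM in the Sst-Npy gate, 134 ± 22.5 CPM in the cholinergic gate and 18.1 ± 3.04 CPM in the spiny gate. The transcription factor genes Etv1, Zeb2, St18 and Zbtb16 had 367, 766, 233 and 329 CPM in the members. The cadherin Cdh20 had 1438 ± 203 CPM, the E3 ligase gene Rnf144b 374 ± 79.6 CPM, and the G protein subunit gene Gna14 156 ± 39.0 CPM. AABR07027925.1, an unnamed locus, completed the 15. St18, Zeb2, Cdh20 and Zbtb16 were also high in oligodendrocyte nuclei, at 609, 2752, 1411 and 509 CPM. Beside them, the oligodendrocyte gene Mbp stood at 69.8 ± 23.7 CPM in the members and 77.4 ± 23.5 CPM in the spiny gate, and Mobp at 5.29 and 21.8 CPM.

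**Figure D3:**
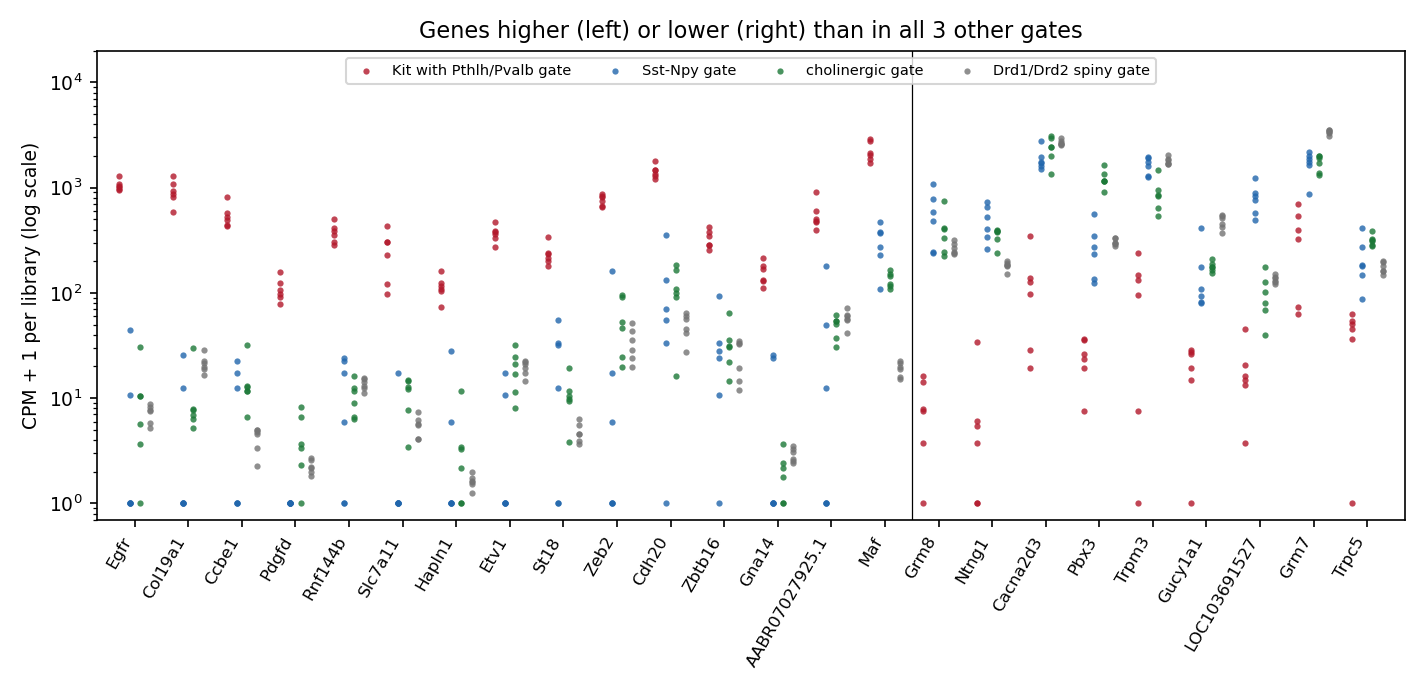
Each point is the level of a gene (CPM plus 1, log axis) in 1 library for the members and the 3 other gates, for the 15 genes named as higher and 9 of the 10 named as lower. The members' points lie above or below those of every other gate for each gene in the same library; a point at 1 is a level of 0.

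Of the genes lower than all 3 gates, Grm8, an inhibitory metabotropic glutamate receptor gene, had 9 UMIs in all members and 7.48 ± 5.90 CPM, against 266 to 569 CPM as the means of the other gates. Ntng1, a netrin-related adhesion gene, had 7.55 ± 12.6 CPM against 181 to 485 CPM. Cacna2d3, a calcium channel accessory subunit gene, had 125 ± 118 CPM against 1876, 2371 and 2694 CPM. Pbx3, a transcription factor, Trpm3 and Trpc5, cation channels, the guanylyl cyclase subunit Gucy1a1, the locus LOC103691527 and Grm7 were also among the 10. Grm7 ranged from 61.6 to 700.2 CPM between libraries in the members, with 71.0 CPM pooled over the Nxph1-rich nuclei and 1478 CPM over the poor.

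The ion channel list of 31 genes for fast firing had 30 in the tables. Against the Sst-Npy gate 11 of 20 tested were higher and 1 lower, against the cholinergic gate 14 of 25 and 3, and against the spiny gate 13 of 27 and 5. Higher genes made up 11.2%, 13.8% and 13.8% of all genes tested in these comparisons, and lower genes 9.57%, 12.8% and 17.3%. The list's median differences were 0.74, 0.56 and 0.36, beside -0.0063, -0.0041 and -0.07 over all genes tested. Kcnc1, Kcnc2, Kcna1, Scn1a, Kcnip1 and Kcnj3 were among those higher against all 3 gates.

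Kcnc1 and Kcnc2 encode Kv3 subunits. Kcnc1 had 345, 499 and 480 CPM after saline and 534, 513 and 360 CPM after naloxone in the members, and 164 ± 29.3, 117 ± 14.7 and 98.5 ± 7.26 CPM in the Sst-Npy, cholinergic and spiny gates. The members' lowest library stood above the highest of every other gate, with log2 differences of 1.52 ± 0.20, 2.02 ± 0.14 and 2.09 ± 0.12 (SE). Kcnc2 was 0.80, 0.63 and 3.84 higher on the log2 scale, with the members at 1646 ± 205 CPM. Kcnip1 was 2.34, 3.77 and 4.99 higher, at 2206 ± 292 CPM. Kcna1, an axonal Kv1 channel, had 203 ± 38.8 CPM against 29.1, 22.2 and 129 CPM, and its call against the spiny gate ended with the Pthlh members (0.36). Scn1a, a sodium channel of fast-spiking cells, had 869 ± 62.3 CPM. It differed least against the Sst-Npy gate (0.54 ± 0.18, adjusted p = 0.043, edgeR), where the call was kept without naloxone library 6 (0.64) and lost without any other library (lowest 0.44) and with the Pthlh members (0.46). Kcnj3, a GIRK channel gene, differed from the cholinergic gate by 0.47 ± 0.16 in 4 of 6 libraries and lost its call without saline library 2 (0.34), saline library 3 (0.42), naloxone library 4 (0.45) or naloxone library 5 (0.40).

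Kcnd2, the Kv4 channel of A-type current, was the exception and was lower against all 3 gates, with 1603 ± 426 CPM in the members and 3041, 2468 and 4746 CPM elsewhere. Kcnn3, an SK channel, had 22.4 ± 11.5 CPM against 128 CPM in the cholinergic and 167 CPM in the spiny gate. Kcns3, a modulatory subunit known in parvalbumin cells, was tested against the spiny gate and had 34.6 against 0.632 CPM.

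**Figure D4:**
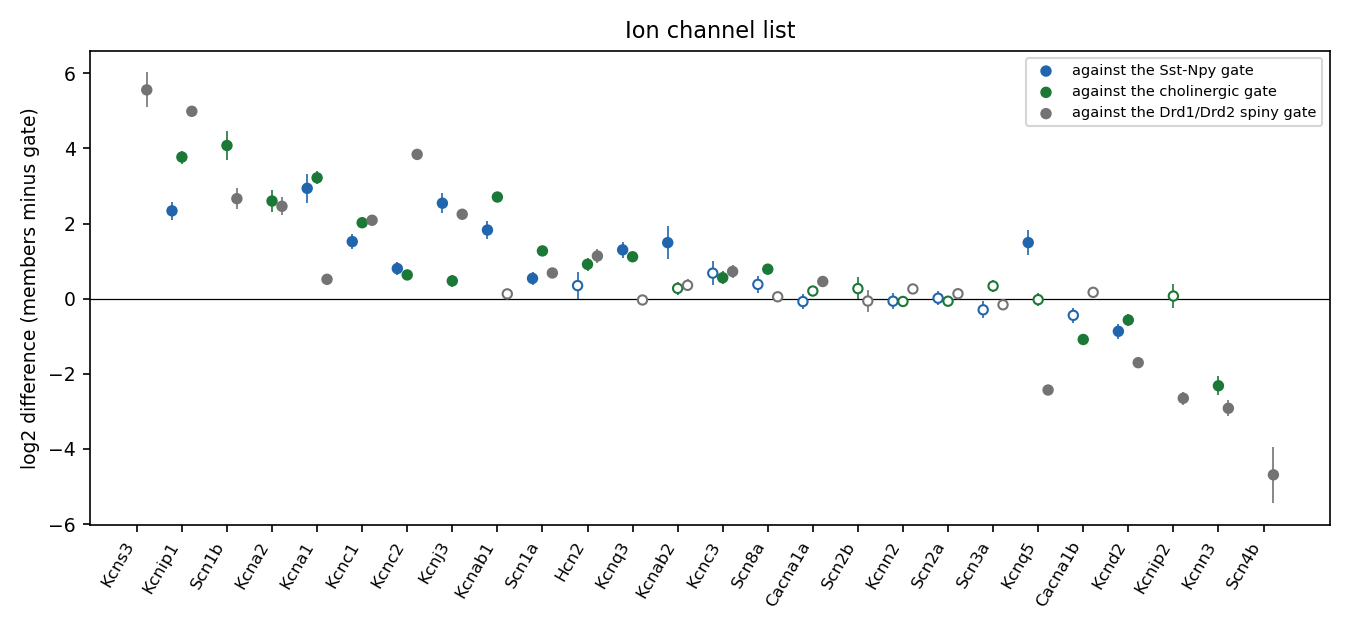
Points are log2 differences (members minus gate) with SE for ion channel genes tested, against the Sst-Npy, cholinergic and spiny gates; filled points passed an adjusted p of 0.05 and open points did not. Kcnc1, Kcnc2, Kcna1, Scn1a, Kcnip1 and Kcnj3 are filled above 0 in all 3 comparisons, and Kcnd2 is filled below 0 in all 3.

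The perineuronal net list had 16 genes, of which 5, 7 and 12 were tested against the 3 gates. Of these, 3, 4 and 5 were higher and 1, 2 and 3 lower. Among all genes tested, 11.2%, 13.8% and 13.8% were higher and 9.57%, 12.8% and 17.3% lower. Hapln1 (above), Crtac1 and the proteoglycan gene Vcan were higher than every gate, Vcan than the cholinergic gate by 0.70 ± 0.20 in 5 of 6 libraries, a call lost without saline library 1 (0.56), saline library 2 (0.63) or naloxone library 5 (0.61). Crtac1 had 491 ± 101 CPM against 73.7, 62.7 and 104 CPM. Bcan was higher than the cholinergic and spiny gates and Hapln4 than the spiny gate. Ptprz1, a receptor phosphatase, was lower than all 3, with 76.0 CPM against 170 to 420 CPM, and Tnr was lower than the cholinergic and spiny gates, the latter call ending with the Pthlh members (-0.42).

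Of 18 transcription factor genes of the medial ganglionic eminence lineage, 8, 10 and 14 were tested, with 5, 7 and 10 higher and 3, 1 and 0 lower. The shares over all genes tested were 11.2%, 13.8% and 13.8% higher and 9.57%, 12.8% and 17.3% lower. Maf, Etv1, Zeb2, Mef2c and Ppargc1a were higher than all 3 gates. Ppargc1a, a coactivator of mitochondrial genes known in parvalbumin cells, had 4688 ± 601 CPM against 1095, 608 and 1536 CPM, and had 4404 CPM in members with Pvalb and 4816 CPM in those without (log2 difference -0.15 ± 0.25, adjusted p = 0.77, edgeR). Sox6 separated the gates differently: its 1065 ± 64.1 CPM was lower than the 3323 ± 474 CPM of the Sst-Npy gate (log2 difference -1.56) and higher than the 85.4 and 36.1 CPM of the cholinergic and spiny gates. Lhx6 was higher than in the spiny gate by 4.10 ± 0.43. Of 14 factors of the spiny lineage, 11 of 12 tested were lower than in the spiny gate, such as Meis2 (28.2 against 1846 CPM), Foxp1 (215 against 1253 CPM) and Rarb (87.0 against 2539 CPM).

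The genes of GABA release were mixed. Of 19 listed, 3 of 9, 4 of 15 and 6 of 18 tested were higher and 0, 5 and 6 lower. Beside these, 11.2%, 13.8% and 13.8% of all genes tested were higher and 9.57%, 12.8% and 17.3% lower. The GABA transaminase gene Abat was higher than all 3 gates, at 274 ± 50.5 CPM against 139, 94.6 and 171 CPM. The vesicular transporter gene Slc32a1 had 62.8 CPM, above 10.4 CPM in the cholinergic and 21.2 CPM in the spiny gate.

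Receptor genes for GABA and glutamate differed in both directions. Over all genes tested against the 3 gates, higher genes made up 11.2%, 13.8% and 13.8%, and lower genes 9.57%, 12.8% and 17.3%. Of 13 GABA-A subunit genes, 3, 3 and 2 were higher and 3, 4 and 7 lower of the 10, 10 and 12 tested. Gabrb2 was higher than all 3 gates, at 742 ± 143 CPM, but with only the members that carry Pthlh its difference from the cholinergic gate was -0.0060 and from the spiny gate 0.16, and neither was called. Gabrb1 (424 against 1388 to 2331 CPM) and Gabrg1 were lower than all 3. Of 24 glutamate receptor genes, 20, 21 and 22 were tested; 5, 10 and 5 were higher and 8, 8 and 16 lower. The AMPA receptor genes Gria1 and Gria4 were higher than every gate: Gria4 had 4358 to 4820 CPM in the 6 libraries and 1603, 1561 and 928 CPM as the means elsewhere. Grin2b, Grin3a, Grik4, Grid1, Grm7 and Grm8 were lower than every gate. Grin2b had 534 ± 42.3 CPM against 853 to 1279 CPM, and Grin2a was higher than in the cholinergic and spiny gates.

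Of 37 modulator receptor genes, 8, 13 and 24 were tested, with 2, 3 and 7 higher and 5, 5 and 10 lower. All genes tested gave 11.2%, 13.8% and 13.8% higher and 9.57%, 12.8% and 17.3% lower. Cnr1, the cannabinoid receptor gene, was higher than all 3 gates, with 256, 302 and 225 CPM after saline and 205, 248 and 181 CPM after naloxone. The other gates had 32.9 ± 19.3, 68.7 ± 30.3 and 12.0 ± 2.09 CPM, and no library overlapped. The muscarinic receptor gene Chrm2 had 220 CPM, lower than in the Sst-Npy and cholinergic gates and higher than in the spiny gate. Tacr1, the substance P receptor gene, had 34.6 CPM against 651 and 442 CPM in the Sst-Npy and cholinergic gates, and its 7.46 CPM in the spiny gate was lower; the last call ended with the Pthlh members (-0.11).

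Opioid receptor genes had few UMIs in the members. Oprm1, the mu receptor targeted by heroin's products and by naloxone, had 20.7, 37.0 and 35.8 CPM after saline and 13.2, 61.9 and 39.1 CPM after naloxone, from 46 UMIs. This was below the 147 ± 15.8 CPM of the cholinergic gate (log2 difference -1.94 ± 0.21, adjusted p = 7.9e-07, edgeR, lower in 6 of 6 libraries). Against the spiny gate at 40.5 ± 7.01 CPM the difference was -0.30 ± 0.23 (adjusted p = 0.37, edgeR). Oprm1 was detected in 24.0% of members, as the mean of library shares. The shares were 26.9%, 54.8% and 25.8% in the Sst-Npy, cholinergic and spiny gates. Oprd1 and Oprk1, the delta and kappa receptor genes, had 2 and 5 UMIs in all members, or 1.32 and 3.97 CPM, and 58.8 and 13.2 CPM in the spiny gate. All 5 Oprk1 UMIs were in Nxph1-poor nuclei. Oprl1, the nociceptin receptor gene, had 5.91 CPM against 2.94 CPM in the spiny gate (adjusted p = 0.41, edgeR).

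The list for Kit and Pthlh signalling held 19 genes, of which 11, 14 and 17 were tested. Of these, 3, 3 and 7 were higher and 1, 1 and 4 lower, beside 11.2%, 13.8% and 13.8% higher over all genes tested. Lower genes made up 9.57%, 12.8% and 17.3% of all genes tested. The adenylyl cyclase genes Adcy1 (203 ± 36.0 CPM) and Adcy8 (445 ± 93.9 CPM) and the ubiquitin ligase gene Lnx1 (124 ± 21.6 CPM) were higher than all 3 gates, Lnx1 than the Sst-Npy gate by 1.22 ± 0.37, a call lost without any 1 of the saline libraries (lowest 0.86). Kitlg, the Kit ligand, had 10.1 ± 10.0 CPM in the members and 91.3 ± 9.51 CPM in the spiny gate (log2 difference -3.22 ± 0.31). Pth1r, the receptor for the Pthlh product, had 0 UMIs in the members, and Pth2r, its relative, had 41.4, 67.8 and 66.4 CPM after saline and 152, 66.3 and 44.6 CPM after naloxone. Pth2r was higher than in the spiny gate (0.89 ± 0.22, adjusted p = 0.00093, edgeR, 5 of 6 libraries) and did not pass the test against the cholinergic gate.

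Of 10 calcium buffer genes, 1, 4 and 9 were tested against the 3 gates, with 1, 0 and 1 higher and 0, 1 and 7 lower. Of 21 peptide genes, 4, 7 and 12 were tested, with 1, 4 and 4 higher and 2, 1 and 4 lower. Higher genes made up 11.2%, 13.8% and 13.8% of all genes tested, and lower genes 9.57%, 12.8% and 17.3%. Among peptide genes, 1 was higher and 1 lower than all 3 gates. Ncald was higher than in the Sst-Npy and spiny gates, and Calb1 had 1 UMI in all members. Chga, a granin, was higher than all 3 gates, at 132 ± 37.7 CPM, with its call against the Sst-Npy gate (0.87 on the log2 scale) kept without saline library 1 (1.05) and lost without any other library (lowest 0.76) and with the Pthlh members (0.59). Crhbp, a binding protein of corticotropin-releasing hormone, was higher than the cholinergic and spiny gates at 29.7 CPM, and Penk was lower than in the spiny gate at 27.0 CPM against 104.

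Naloxone was compared with saline over the 6 member sums. Of 3192 genes tested 0 passed (0% called) with edgeR, while 146 (4.57%) had an unadjusted p under 0.05 and the groups of 3 libraries did not overlap for 344 (10.8%). DESeq2 also called 0, with 44 genes at an unadjusted p under 0.05. Of 25 heat shock and chaperone genes, 9 were tested, 8 with a lower mean after naloxone; their median log2 difference was -0.36, beside -0.0013 over all genes tested. Chordc1, an Hsp90 cochaperone gene, had 131, 86.3 and 107 CPM after saline and 39.6, 61.9 and 64.2 CPM after naloxone, on 97 UMIs in all. Its groups did not overlap, and its difference was -0.89 ± 0.31 SE (unadjusted p = 0.012, adjusted p = 0.96, edgeR). Hsph1 had 117, 129 and 107 CPM and 106, 53.0 and 83.7 CPM, which did not overlap either (-0.56 ± 0.30, adjusted p = 0.96). Of 21 immediate early genes only Homer1 was deep enough to test (133 and 118 CPM, -0.08 ± 0.28), and glucocorticoid targets gave 0 calls of 4 tested.

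**Figure D5:**
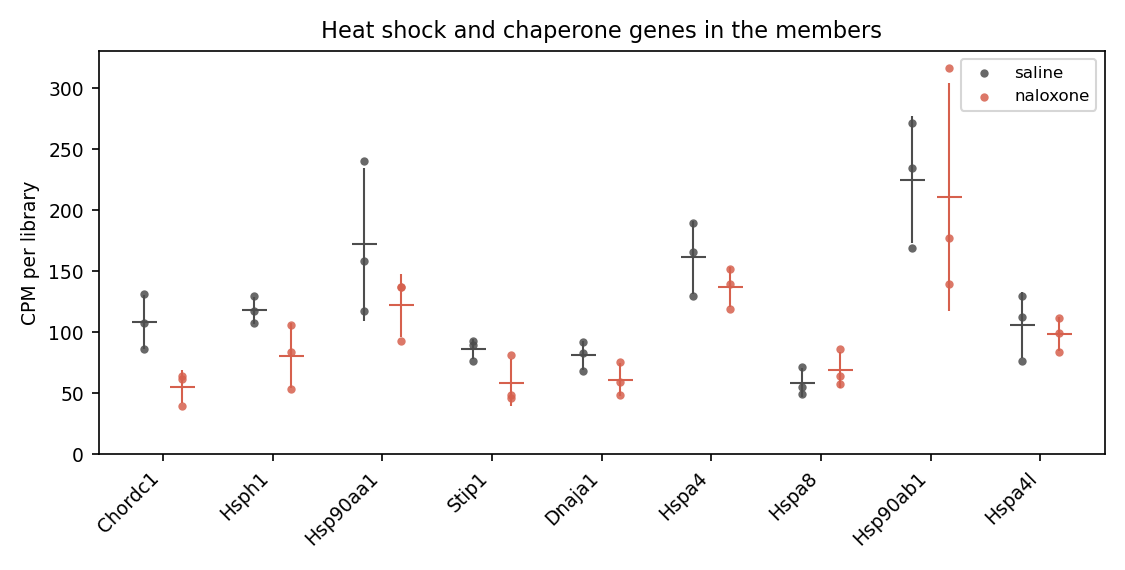
Points give the level (CPM, linear axis from 0) of the 9 tested heat shock and chaperone genes in the members of each library, with bars for the mean and SD of the 3 saline and 3 naloxone libraries. Chordc1 and Hsph1 have groups that do not overlap, and none of the 9 passed the adjusted threshold.

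The difference between the naloxone effect in the members and that in another gate was tested as an interaction. Against the spiny gate 17 of 12484 genes (0.136%) passed in edgeR, 11 with a more positive effect in the members (0.0881%) and 6 with a more negative one (0.0481%), and DESeq2 called 0. None of the 17 kept its call in every fit that left out 1 library. Cacna2d3 had 47.7 CPM after saline and 202 CPM after naloxone in the members, and 2652 and 2737 CPM in the spiny gate (log2 difference of effects 2.06 ± 0.32 SE). Of its 173 UMIs after naloxone, 108 were in the 2 called doublets, and without them the difference was 1.00 and was not called. With the doublets left out 10 of the 17 were called. Of the 17 genes, 16 had a higher pooled level in Nxph1-poor than in Nxph1-rich members, and 9 of them by over 10 times. The share of all genes with a higher level in the poor members was not computed. The 16 went in both directions. Adamtsl1 (84.8 CPM in poor and 0 in rich members), Tshz2 (447 and 18.0 CPM), Ldb2, Prkg1 and Pld5 had a more negative effect in the members, and the rest a more positive one. The share of member UMIs from Nxph1-poor nuclei was 14.8% to 22.2% in the saline libraries and 15.9% to 37.5% in the naloxone libraries, and its part in these calls was not tested. With the 87 Pthlh members 3 genes were called, of which Adarb2 changed sign. Against the Sst-Npy gate 2 of 3609 genes (0.0554%) passed. Of the heat shock and chaperone genes, 0 of 22 tested passed against the spiny gate. There 13 were positive and 9 negative, with a median of 0.0505 beside 0.0497 over all genes tested. Against the Sst-Npy gate 0 of 12 passed, 10 positive and 2 negative, with a median of 0.41 beside 0.036. Their lower means after naloxone were thus not shown to be particular to the members.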

How the data were processed

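Single-nucleus RNA of the nucleus accumbens was deposited as unnormalized UMI counts per gene and nucleus for 6 libraries, which the authors made with Cell Ranger 9.0.1 on mRatBN7.2, per the submitters' processing notes (Seurat 5.2.1 and R 4.4.0 are also named there). The members, gene lists and tests were chosen with earlier results of these data known. Nuclei were selected on raw counts by the limits in the opening; 14 of the 16 gate genes and 25629 genes were in the tables. Counts were summed per library and class and tested in edgeR 4.0.16 (quasi-likelihood, TMM factors, filterByExpr, Benjamini-Hochberg, threshold 0.05) under R 4.3.3; class and Pvalb comparisons held the library as a block. Gate genes stayed in the library sizes and were not tested. DESeq2 1.42.0 was an alternative. Member sums held 144801 to 358478 UMIs per library, which limits low genes; floors (3 UMIs) cover counting error only. The edgeR fits were tested on simulated counts. Doublets were called by simulated pairs and kept; leaving them out was an alternative, as were each library, RLE factors, no low-count filter, 1000 detected genes, at least 2 UMIs of Kit and of Pthlh and Pvalb together, and, chosen after seeing the data, members with a Pthlh UMI and a broader Sst-Npy gate. Named genes are the 15 highest and 10 lowest by the smallest of the 3 log2 differences, called in all 3 fits, in 6 of 6 libraries and at 20 CPM or more on the higher side, the 5 largest each way in the Pvalb comparison, called list genes, opioid receptors, Eya4, Kitlg, Pth1r and Pth2r. Genes named after their values were seen are Eya1, Adarb2, Ptprd, Syt2 and those of the naloxone paragraph. So are the listed genes named beside Adarb2. Upstream sequences are from RefSeq (GRCr8) and were matched by symbol. Some genes of the lists and of the named set are counted above but not reported by name here.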

Additional observations from a re-analysis of the deposited data

Results flagged for a closer look

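In 19 gene results the naloxone effect in the members differed from that in another gate by an interaction test in edgeR (adjusted p under 0.05). Against the Sst-Npy gate these were Meis2 (log2 difference of effects 6.18; members 6.41 CPM after saline and 50.1 CPM after naloxone, Sst-Npy gate 451 and 65.4 CPM, the last from 7 UMIs) and AABR07027306.1 (2.27; 575 and 861 CPM, 2388 and 771 CPM). Of the 40 Meis2 UMIs in members after naloxone, 34 were in the 2 called doublets and 6 in the other 56 nuclei, and AABR07027306.1 had 187 of 680 in them. With doublets left out the differences were 2.40 and 1.06. Neither was called with doublets left out, with the Pthlh members or with the broader Sst-Npy gate.

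Against the spiny gate the effect was more positive in the members for Meis2 (3.06), Sema3e (2.65), Cacna2d3 (2.06), Kcnt2 (2.02), Dach1 (1.95), Nell1 (1.71), Adarb2 (1.27), Gpc5 (1.18), Sorcs3 (1.18), Olfm3 (1.02) and Galntl6 (0.99). It was more negative for Adamtsl1 (-5.21), Tshz2 (-1.48), Ldb2 (-1.38), Prkg1 (-1.36), Pld5 (-1.06) and Pde3a (-0.95). The Meis2 result rests on the same 40 UMIs. The 2 called doublets held 8.8% of the naloxone members' UMIs, but 85% of those of Meis2, 70.4% of Kcnt2, 62.4% of Cacna2d3, 46.2% of Sema3e and 30.6% of Gpc5. Without the doublets these differences were 0.50, 0.59, 1.00, 1.90 and 0.78, and none of the 5 was called. Galntl6 and Pde3a also lost their calls, at 0.82 and -0.94. Gpc5 had 992 and 1962 CPM in the members after saline and naloxone and 270.2 and 319 CPM in the spiny gate, and its pooled level was 6414 CPM in Nxph1-poor and 11.7 CPM in Nxph1-rich members.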

How the results depend on the processing

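With at least 2 UMIs of Kit and of Pthlh and Pvalb together, the naloxone minus saline share of members was -0.00266 points of quality nuclei and -0.00681 of GABAergic nuclei. The same limit gave 348, 1021 and 2040 calls against the Sst-Npy, cholinergic and spiny gates, 0 with and without Pvalb, and 0 and 4 interactions against the Sst-Npy and spiny gates. It gave log2 values of 0.53 for Hsp90ab1 after naloxone, -0.0074 for Gabrb2 against the cholinergic gate, -2.31 for Adarb2 against the spiny gate and -0.33 for Kcnd2 with Pvalb. The spiny interactions were then -0.18 for Meis2, -0.15 for Sema3e, 10.41 for Tshz2, -0.23 for Galntl6 and -9.20 for Gpc5. Without a low-count filter there were 24 naloxone calls, 416 with and without Pvalb and 21 Sst-Npy interactions. The broader Sst-Npy gate gave 1096 calls, 0 interactions and -0.33 for Htr4. Leaving out called doublets gave 0 Sst-Npy interactions, and DESeq2 gave 0 spiny interactions. Pthlh members lost 3 named calls against the Sst-Npy gate (Scn1a, Chga and Htr4) and 4 against the spiny gate (Gabrb2, Kcna1, Tnr and Chrm3), and gave 0 Sst-Npy and 3 spiny interactions, 0.11 for Hspa4l after naloxone, -0.0060 and 0.058 for Gabrb2 and Pth2r against the cholinergic gate, and -7.71, -0.11 and -3.47 for Syt2, Tacr1 and Adarb2 against the spiny gate. Their spiny interactions were -2.19 for Adarb2, 0.15 for Tshz2 and -1.71 for Gpc5. The cause was not tested.

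Leaving out each library gave 412 to 548, 1551 to 1649 and 3182 to 3408 calls against the 3 gates, 121 to 230 with and without Pvalb, 0 naloxone calls, and 1 to 14 and 13 to 35 interactions against the Sst-Npy and spiny gates. Without naloxone library 5 the interactions numbered 14 and 35, and against the Sst-Npy gate they numbered 6 without saline library 1, 12 without naloxone library 4 and 1 without naloxone library 6. Hspa4l ranged from -0.26 to 0.078, Hsp90ab1 from -0.49 to 0.11, and the Kcnt2 interaction from -0.42 to 2.41. Of the named calls, 55 of 60, 68 of 70 and 81 of 85 against the 3 gates, 13 of 19 with and without Pvalb, and 1 of 2 and 0 of 17 interactions against the Sst-Npy and spiny gates were kept in each of these fits that tested them. No paired analysis was possible because the saline and naloxone libraries share no replicate number. Requiring Eya4 left 0 members. Member UMIs limit genes of low level, and 3192 of 25629 genes were deep enough to test for naloxone.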
